A study of Homo sapiens with 6 samples.

Results

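The 8 genes described here encode selectins and other adhesion molecules of the vessel wall: SELP, SELE, SELPLG, ICAM1, ICAM2, VCAM1, PECAM1 and VWF. They were picked by name from the 20811 genes of a transcriptome table, with their levels in HuCCT1/CD90+ and HuCCT1/CD90- cells already known. Their differences between the lines are therefore given as a description without a test. HuCCT1 cells derive from a human cholangiocarcinoma, a tumour of the bile ducts inside the liver. For HuCCT1/CD90+ the cells were transduced with THY1-CMV-GFP, which carries the CD90 gene THY1, and for HuCCT1/CD90- with Lenti-CMV-GFP-2A-Puro-Blank, both at a MOI of 40. Both lines carry a vector with the CMV promoter and GFP and were grown in the same serum-containing medium, and no untransduced cells entered the comparison. Whether each line is a pool or a clone is not given in the sources used here.

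There were 3 libraries of each line, and nothing in the labels says that they came from separate cultures, so the spread between them may be technical. Each gene was read from 1 amplicon of the Ion AmpliSeq Transcriptome panel and is given in RPM, the reads of the gene scaled to a common library total. The libraries held 8587634 to 10551516 reads, and 3 reads, the limit used here for detection, correspond to 0.284 to 0.349 RPM. In HuCCT1/CD90- cells THY1 had 1 read over all 3 libraries, against 46.6, 51.8 and 73.8 RPM in HuCCT1/CD90+ libraries, in the direction of the labels. KRT7 and KRT19, keratins of bile duct epithelium, had means of 3433 and 3228 RPM in HuCCT1/CD90- cells and 3656 and 4146 RPM in HuCCT1/CD90+ cells.

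Selectins are lectins that hold leukocytes and platelets loosely on the vessel wall. P-selectin (SELP) is stored in platelet granules and in the Weibel-Palade bodies of endothelium together with von Willebrand factor (VWF), and E-selectin (SELE) is made by endothelium after inflammatory signals. Their ligand PSGL-1 (SELPLG) sits on leukocytes and must carry fucosylated and sialylated glycans to be bound. Firm adhesion then uses integrins, which bind ICAM1, ICAM2 and VCAM1 of the immunoglobulin superfamily, and PECAM1 takes part in passage between endothelial cells. SELE, ICAM1 and VCAM1 are well known target genes of NF-kB, the transcription factor of inflammatory signalling.

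The promoters of 3 members are shown because SELP and VCAM1 were read mainly in HuCCT1/CD90- cells and SELE hardly in either line. RefSeq windows of 300 bases, 250 before to 50 from the start site, were at hand for 4 of the 8 members on GRCh38.p14, and are written in the direction of the gene with a match to the NF-kB consensus in capitals. The windows lie at chr1:169630075-169630374 on the minus strand for SELP, chr1:100719492-100719791 on the plus strand for VCAM1 and chr1:169734030-169734329 on the minus strand for SELE, the last one inside the longer span that GENCODE gives to SELE.
SELP: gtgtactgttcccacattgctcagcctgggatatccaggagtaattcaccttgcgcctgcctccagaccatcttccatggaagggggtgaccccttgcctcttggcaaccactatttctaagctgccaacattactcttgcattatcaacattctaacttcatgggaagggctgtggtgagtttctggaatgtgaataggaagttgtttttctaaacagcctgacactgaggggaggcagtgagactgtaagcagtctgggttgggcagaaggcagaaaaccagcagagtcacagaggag
VCAM1: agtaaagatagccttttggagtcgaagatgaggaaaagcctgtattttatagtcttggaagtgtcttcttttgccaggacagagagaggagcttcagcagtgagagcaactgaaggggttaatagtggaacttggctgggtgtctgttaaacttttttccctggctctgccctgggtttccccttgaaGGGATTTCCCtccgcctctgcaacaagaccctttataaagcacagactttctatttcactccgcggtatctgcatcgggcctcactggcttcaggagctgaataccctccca
SELE: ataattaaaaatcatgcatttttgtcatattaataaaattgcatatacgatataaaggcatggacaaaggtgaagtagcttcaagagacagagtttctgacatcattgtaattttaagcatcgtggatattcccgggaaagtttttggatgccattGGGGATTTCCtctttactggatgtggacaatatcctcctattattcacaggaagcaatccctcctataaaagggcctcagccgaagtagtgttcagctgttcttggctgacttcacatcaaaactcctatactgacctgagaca

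The NF-kB consensus, searched on both strands, had 1 match in the VCAM1 window, at -62 from the start site, and 1 in the SELE window, at -94. It had no match in the windows of SELP and ICAM1. The pattern searched was GGGRNNYYCC, where R is A or G, Y is C or T and N is any base. NF-kB sites that depart from this pattern would not be counted, so no match does not mean no site. Over 35116 RefSeq windows of the same length, 11.3% held a match. TATAAA, also searched on both strands so that matches may overlap, was found 3 times in VCAM1, 2 times in SELE, once in ICAM1 (at -30) and not in SELP, against 11.5% of all windows. CACCTG had 1 match, in ICAM1, against 20.6% of all windows. TGANTCA and GATAAG, in 7.71% and 6.36% of all windows, had no match in any of the 4. The windows held 49.7% G and C in SELP, 38.3% in SELE, 48.3% in VCAM1 and 64.7% in ICAM1. These matches describe letters in the window and not binding.

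SELP was by far the most abundant member, and almost all of its reads came from HuCCT1/CD90- cells. It was read at 451, 524 and 568 RPM in HuCCT1/CD90- libraries 1, 2 and 3, from 4763, 4899 and 5857 reads. The HuCCT1/CD90+ libraries gave 0.750, 0.466 and 0.543 RPM, from 7, 4 and 5 reads. The lines were far apart, and each HuCCT1/CD90+ library was just above the detection limit. The means were 515 ± 59.0 and 0.586 ± 0.147 RPM (SD, n = 3 libraries), 878-fold lower in HuCCT1/CD90+ cells. The difference of log2(RPM + 1) was -8.34 with a standard error of 0.12. The ratio of pooled reads was 871, with an exact 95% interval for counting error from 536 to 1525. Only 2 of the 20811 genes had a more negative log2 difference. SELP ranked 253 by mean RPM in HuCCT1/CD90- cells and 12382 in HuCCT1/CD90+ cells. Here and in all that follows, bulk RNA cannot tell fewer cells with a transcript from less of it per cell.

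SELE stood at the limit of detection in both lines. It was read 0, 1 and 0 times in HuCCT1/CD90- cells and 1, 0 and 0 times in HuCCT1/CD90+ cells, so no fold is given and no difference was detectable at this depth.

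SELPLG, the ligand of P-selectin, was low in both lines and lower in HuCCT1/CD90+ cells. Its levels were 2.09, 2.03 and 1.94 RPM in HuCCT1/CD90- libraries and 0.536, 0.932 and 1.19 RPM in HuCCT1/CD90+ libraries, the latter from 5, 8 and 11 reads. The 2 sets of libraries did not overlap. The mean was 2.28-fold lower in HuCCT1/CD90+ cells, with an interval of the pooled read ratio from 1.40 to 3.83. The log2 difference was -0.69 (SE 0.15), and -1.16 with an offset of 0.1 RPM in place of 1 RPM, since the offset shrinks the differences of genes at such low levels.

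Of the integrin ligands, VCAM1 was lower and ICAM2 higher in HuCCT1/CD90+ cells, while the values of ICAM1 overlapped. VCAM1, which is bound by integrins with the α4 chain, was read at 7.68, 10.5 and 9.80 RPM in HuCCT1/CD90- libraries and at 0.643, 1.05 and 1.19 RPM in HuCCT1/CD90+ libraries. The HuCCT1/CD90+ values rest on 6, 9 and 11 reads, all above the detection limit. Its mean was 9.69-fold lower, with a log2 difference of -2.40 (SE 0.18) and an interval of the pooled read ratio from 6.46 to 15.1.

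ICAM2, a ligand of the leukocyte integrin LFA-1 that endothelium carries without stimulation, went the other way. It had 11.4, 12.4 and 13.1 RPM in HuCCT1/CD90- libraries and 75.4, 56.0 and 52.7 RPM in HuCCT1/CD90+ libraries. HuCCT1/CD90+ library 1 was the highest, and the lowest HuCCT1/CD90+ value was still above every HuCCT1/CD90- value. The mean was 4.99-fold higher in HuCCT1/CD90+ cells, with a log2 difference of 2.21 (SE 0.17) and an interval of the pooled read ratio from 4.48 to 5.62. By this difference ICAM2 ranked 281 among the genes that were higher.

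ICAM1, the inducible ligand of LFA-1 and Mac-1, was read at 4.74, 10.9 and 7.96 RPM in HuCCT1/CD90- libraries and at 5.36, 5.59 and 6.84 RPM in HuCCT1/CD90+ libraries. HuCCT1/CD90- library 1 lay below every HuCCT1/CD90+ library and the other two above them. The log2 difference was -0.30, no larger than its standard error of 0.32, and it lay between -0.58 without HuCCT1/CD90- library 1 and -0.055 without library 2.

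PECAM1, a junctional molecule of endothelium, platelets and leukocytes, was scarce. It gave 1.14, 1.93 and 3.49 RPM in HuCCT1/CD90- libraries and 0.107, 0.932 and 0.543 RPM in HuCCT1/CD90+ libraries, the latter from 1, 8 and 5 reads. The lines did not overlap, but the HuCCT1/CD90- values spread over a 3-fold range and 1 HuCCT1/CD90+ library was under the detection limit. The mean was 4.14-fold lower, with an interval of the pooled read ratio from 2.35 to 8.16. The log2 difference was -1.03 (SE 0.39) with the offset of 1 RPM, which is large against these levels, and -2.01 with an offset of 0.1 RPM. VWF, the carrier of factor VIII and the tether of platelets, was not read in HuCCT1/CD90- cells and had 1, 3 and 4 reads in HuCCT1/CD90+ cells. Only 1 of these HuCCT1/CD90+ libraries was above the limit, so no fold is given.

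**Figure D1:**
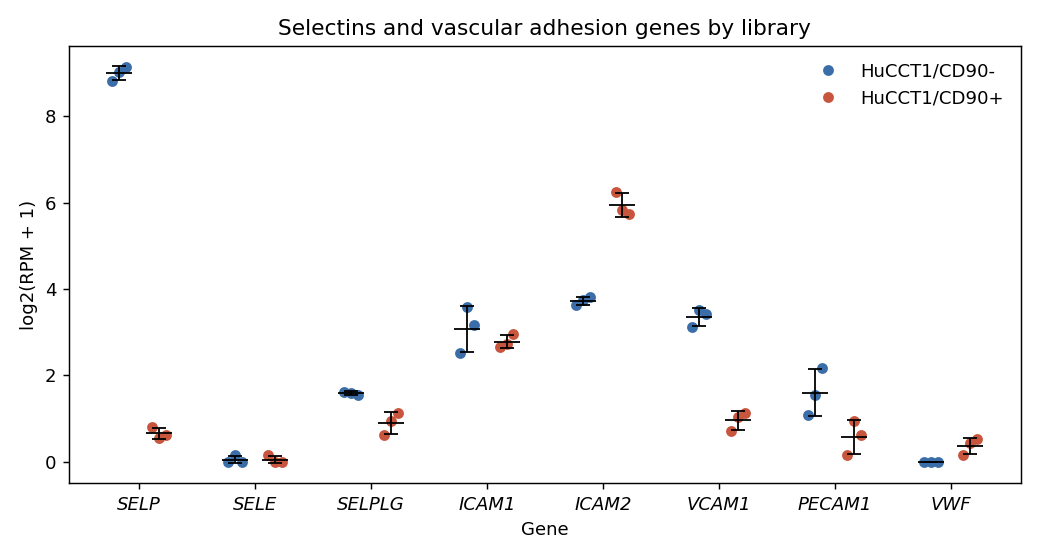
Level of each member in each library, as log2(RPM + 1), with HuCCT1/CD90- libraries in blue and HuCCT1/CD90+ libraries in red. Points are libraries in the order 1 to 3, and black bars are the mean and SD of 3 libraries. SELP stands far above all other members in HuCCT1/CD90- cells and near 0 in HuCCT1/CD90+ cells, and ICAM2 is the only member above 10 RPM that is higher in HuCCT1/CD90+ cells.

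In total, every HuCCT1/CD90+ library was below every HuCCT1/CD90- library in 4 members (SELP, SELPLG, VCAM1 and PECAM1) and above in 2 (ICAM2 and VWF), while SELE and ICAM1 overlapped. Over all 20811 genes the same held for 17.7% (below) and 17.3% (above). Nothing is read from the members' count, since this contrast chose them. Without HuCCT1/CD90- library 1, ICAM1 joined those below. Of the 8 members, 6 had a mean of at least 1 RPM.

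Amplicons may differ in yield, so the order of levels is one of amplicon reads. In HuCCT1/CD90- cells SELP led with 515 RPM, followed by ICAM2 (12.3), VCAM1 (9.32), ICAM1 (7.87), PECAM1 (2.19), SELPLG (2.02), SELE and VWF. VCAM1 and ICAM1 overlapped in their libraries, as did PECAM1 and SELPLG, and SELE and VWF. In HuCCT1/CD90+ cells ICAM2 led with 61.4 RPM and ICAM1 followed with 5.93, each clear of the next. The other 6 members all had means below 1 RPM, and each overlapped its neighbour in that order.

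SELP and SELE lie near each other on chromosome 1, but only SELP was expressed above the detection limit. By GENCODE 29 on GRCh38, F5 (chr1:169514166-169586588), SELP (chr1:169588849-169630193) and SELE (chr1:169722641-169764705) lie in this order by coordinate, all on the minus strand. The gap between F5 and SELP is 2.3 kb and that between SELP and SELE 92.4 kb.

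F5, the gene of coagulation factor V, had 1.80, 2.25 and 2.04 RPM in HuCCT1/CD90- libraries and no read in any HuCCT1/CD90+ library. It was at least 5.81-fold lower in HuCCT1/CD90+ cells when set against 3 reads per library (limma adjusted p = 0.00055). In the HuCCT1/CD90- libraries there were 0.40, 0.43 and 0.36 F5 reads for every 100 SELP reads, from few F5 reads.

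Of the 20 measured genes nearest to SELP, 10 on each side, 19 are described, of which 3 fell and none rose, against 7.49% of all genes that passed the same test as lower in HuCCT1/CD90+ cells and 7.59% as higher. The test was limma on log2(RPM + 1) over all genes, with a Benjamini-Hochberg adjusted p of at most 0.05 and a fold change of at least 1.5. Besides F5 these were GORAB, a Golgi protein gene (24.1 ± 4.26 to 12.5 ± 1.19 RPM, limma adjusted p = 0.027), and the noncoding LINC00626, which had 0.657 RPM in HuCCT1/CD90- cells and no read in HuCCT1/CD90+ cells. GORAB lost its call in 5 of the 6 fits that left out 1 library, all but the one without HuCCT1/CD90- library 1. C1orf112, which runs on the plus strand across SELE, gave 57.5 ± 16.4 and 40.8 ± 5.95 RPM and did not pass. The 11 genes other than F5 with a mean of at least 1 RPM had log2 differences from -0.88 to 0.34 with a median of -0.26, against a median of -0.0086 over the 12062 such genes in the table. The 3 calls remained with the replicate number as a block, but 1 gene passed when a 2-fold change was required, and 1 with an offset of 5 RPM.

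**Figure D2:**
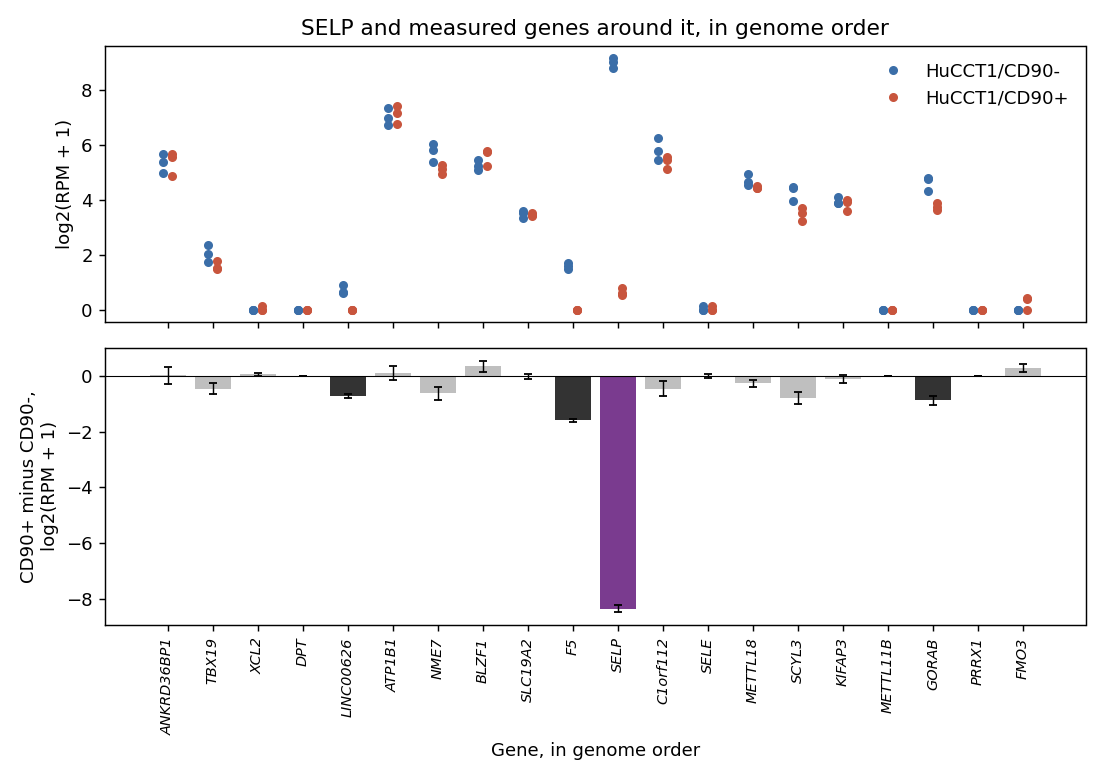
SELP and 19 of the 20 measured genes nearest to it, in genome order but not a gapless run. The upper panel gives log2(RPM + 1) in each library (blue HuCCT1/CD90-, red HuCCT1/CD90+) and the lower panel the difference between the line means with its standard error, with SELP in purple, the 3 genes that passed the test in dark grey and the others in light grey. The largest difference among them is that of SELP (-8.34), followed by F5 (-1.60), and SELE is near 0 in both lines.

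The other members lie elsewhere. VCAM1 is on chromosome 1 at 68.8 Mb from SELP. ICAM2 (chr17:64002594-64020634) and PECAM1 (chr17:64319415-64413776) are 298.8 kb apart on the minus strand, ICAM2 being higher and PECAM1 lower in HuCCT1/CD90+ cells. ICAM1 lies at chr19:10270835-10286615, and SELPLG and VWF are far apart on chromosome 12.

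The profiles nearest to those of the members were found from the root mean square distance of centred log2(RPM + 1) values over the 6 libraries, among the 12061 other genes that averaged 1 RPM or more. The nearest to SELP were SULF1, a heparan sulfate sulfatase, at a distance of 0.22, SPARC, a matrix glycoprotein, at 0.43, and GRAMD1B, a sterol transfer protein, at 0.47. SULF1 had 434 RPM in HuCCT1/CD90- cells and 0.188 RPM in HuCCT1/CD90+ cells on average, and SPARC had 579 and 0 RPM. The nearest to VCAM1 were ZMIZ1 (0.069), CD99L2 (0.082) and NFE2 (0.087). RAB19, C3orf52 and MIR205HG were nearest to ICAM2 (0.093 to 0.11), and FOSL2, MEF2D and NFKBID nearest to ICAM1 (0.082 to 0.089). The offset of 1 RPM shrinks differences at low levels, so near profiles need not share a fold change. From HuCCT1/CD90- to HuCCT1/CD90+ cells, mean RAB19 rose from 0.0357 to 4.05 RPM, and ICAM2 from 12.3 to 61.4 RPM. C3orf52 (10.4 to 51.4 RPM) and MIR205HG (15.9 to 85.7 RPM) were nearer to ICAM2 in level. NFE2 fell 13.0-fold, CD99L2 5.26-fold and ZMIZ1 from 351 to 65.6 RPM, against 9.69-fold for VCAM1.

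Companion genes were taken from 7 lists of ligands, adhesion molecules, enzymes and regulators. Of 107 genes, 101 were measured, of which 12 fell, 14 rose and 75 did not pass the test. These counts, and those of each list, stand against 7.49% of all genes lower and 7.59% higher. Fold changes are on the log2(RPM + 1) scale, which understates those of genes at low levels. CD24, FUT3, FUT5, FUT7, CHST2 and GP1BB were not analysed here. Where the average was 1 RPM or more, the shares were 16.2% lower and 17.6% higher of 74 companion genes, against 12.1% and 12.0% of all such genes. With the replicate number as a block, 7 fell and 9 rose, against 4.86% lower and 5.24% higher among all genes.

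Among 9 selectin ligand proteins, 1 fell and 2 rose, and with the block none fell and 1 rose (median log2 fold change 0, as for all genes). GLG1, a Golgi glycoprotein that binds E-selectin, fell from 68.8 ± 14.5 to 29.2 ± 3.33 RPM (limma adjusted p = 0.021, with the block 0.051). GLG1 passed in only 1 of the 6 fits that left out 1 library, the one without HuCCT1/CD90- library 3. CD44, the hyaluronan receptor, was read at 1.14, 2.14 and 1.75 RPM in HuCCT1/CD90- libraries and at 14.2, 14.9 and 15.0 RPM in HuCCT1/CD90+ libraries. CD44 rose by 2.57 on the log2 scale (SE 0.16, limma adjusted p = 0.0018). PODXL, the sialomucin podocalyxin, rose from 74.4 ± 19.0 to 279 ± 17.8 RPM (limma adjusted p = 0.0070, with the block 0.050008 and just over the threshold). The most abundant of the list, LGALS3BP, named after its values were seen, had 830 and 623 RPM and did not pass.

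The enzymes that build selectin ligand glycans went both ways, 3 of 17 falling and 4 rising with a median log2 fold change of 0.25. With the block 1 fell and 2 rose. B3GNT3, which extends the core of mucin-type glycans, gave 9.95, 18.9 and 12.2 RPM in HuCCT1/CD90- libraries and 130, 162 and 130 RPM in HuCCT1/CD90+ libraries. It rose by 3.31 on the log2 scale (SE 0.26, limma adjusted p = 0.0032). GCNT1, which branches the same glycans, gave 31.0, 41.7 and 36.6 RPM and then 7.08, 6.52 and 7.92 RPM. GCNT1 fell by 2.19 (SE 0.13, limma adjusted p = 0.0018). The sulfotransferase CHST4 rose from 0.334 ± 0.123 to 1.73 ± 0.362 RPM (limma adjusted p = 0.010). The galactosyltransferase B4GALT1 fell from 200.1 ± 20.4 to 100.7 ± 9.03 RPM (limma adjusted p = 0.0070, with the block 0.062).

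Of 17 other adhesion molecules of the immunoglobulin superfamily and their like, 3 fell and 5 rose, with a median log2 fold change of 0.11. With the block 2 fell and 4 rose. CD99L2, a relative of the junctional protein CD99, fell from 122.6 ± 8.14 to 23.3 ± 3.30 RPM (limma adjusted p = 0.0012). CD58, the ligand of CD2 on T cells, fell from 40.8 ± 9.60 to 14.9 ± 3.26 RPM (limma adjusted p = 0.030). It lost its call in 5 of the 6 fits that left out 1 library, all but the one without HuCCT1/CD90- library 2. ESAM, a junctional molecule of endothelium and platelets, rose from 0.329 ± 0.220 to 3.54 ± 0.412 RPM (limma adjusted p = 0.0034). CD47, the signal that holds off phagocytes, rose from 75.9 ± 10.5 to 189 ± 6.64 RPM (limma adjusted p = 0.0042).

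The integrin counter-receptors of ICAM1 and VCAM1 were mostly absent. Of 9 genes 5 had at most 3 reads in every library of both lines. Among them were ITGAL and ITGA4, the α chains of integrins that bind ICAM1 and VCAM1. ITGB7 fell from 2.40 ± 0.548 to 0.260 ± 0.0771 RPM (limma adjusted p = 0.0048). The β chain ITGB1 was read without passing. ITGB2, the β chain of LFA-1 and Mac-1, was read at 45.9, 69.9 and 51.4 RPM in HuCCT1/CD90- libraries and at 72.0, 107.2 and 85.3 RPM in HuCCT1/CD90+ libraries, higher within each pair of the same number. It did not pass in the main fit (limma adjusted p = 0.14) and was called higher with the block (0.020). It was also called higher without the block when genes under 1 RPM or under 10 RPM were left out.

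Among 17 partners of VWF and genes of the Weibel-Palade body, 2 fell and 1 rose with a median log2 fold change of 0. With the block 2 fell and none rose. ITGB3, the β3 integrin chain that joins VWF on platelets, had 16.2, 22.6 and 23.4 RPM in HuCCT1/CD90- libraries and 0.858, 1.51 and 0.651 RPM in HuCCT1/CD90+ libraries. It fell by 3.44 on the log2 scale (SE 0.23, limma adjusted p = 0.0020), the log2 fold change being -4.29 with an offset of 0.1 RPM, while its platelet partner ITGA2B was near 0 in both lines. LRP1, a scavenger receptor that clears VWF, fell from 131 ± 52.0 to 11.4 ± 2.99 RPM (limma adjusted p = 0.0095). CD63, a tetraspanin of lysosomes and Weibel-Palade bodies, rose from 215 ± 18.0 to 333 ± 34.1 RPM (limma adjusted p = 0.023, with the block 0.070). CD63 passed in only 1 of the 6 fits that left out 1 library, the one without HuCCT1/CD90+ library 1.

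**Figure D3:**
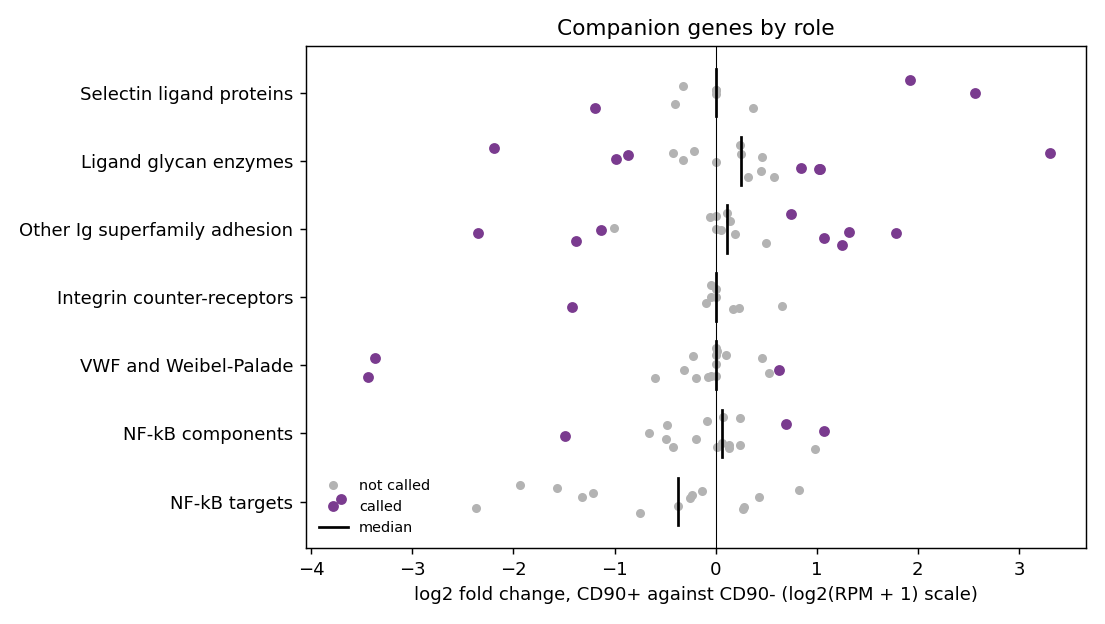
Log2 fold change of the 101 measured companion genes in HuCCT1/CD90+ against HuCCT1/CD90- cells, one row per list. Each point is a gene, purple where it passed the test (adjusted p of at most 0.05 and fold change of at least 1.5), and the black line is the median of the list. Genes that passed lie on both sides of 0 in 5 of the 7 lists, and the medians lie between -0.37 and 0.25.

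NF-kB controls SELE, ICAM1 and VCAM1 in endothelium, so its components and other target genes were set beside them. Of 17 components, all with at least 1 RPM, 1 fell and 2 rose, and with the block none fell and 1 rose (median log2 fold change 0.061). The interleukin receptor IL1R1 fell from 12.5 ± 3.06 to 3.77 ± 0.900 RPM (limma adjusted p = 0.020, with the block 0.055). The TNF receptor TNFRSF1B rose from 0.494 ± 0.0709 to 2.20 ± 0.818 RPM (limma adjusted p = 0.030, with the block 0.072), and the kinase MAP3K7 from 8.85 ± 1.27 to 14.9 ± 1.43 RPM (limma adjusted p = 0.028). Of the 6 fits that left out 1 library, IL1R1 passed only without HuCCT1/CD90- library 2, TNFRSF1B only without HuCCT1/CD90+ library 1 or 3, and MAP3K7 in none.

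Of 15 target genes 1 fell and none rose, and the median log2 fold change was -0.37. The chemokine CCL2 was read at 28.8, 35.3 and 44.7 RPM in HuCCT1/CD90- libraries and at 2.14, 2.10 and 1.30 RPM in HuCCT1/CD90+ libraries. It fell by 3.70 on the log2 scale (SE 0.22, limma adjusted p = 0.0016). HuCCT1/CD90- library 1 was the lowest of its line in 15 of the 15 targets, in 5 of the 6 members with at least 1 RPM and in 43.4% of the 12062 such genes. SOD2, for instance, had 182 RPM in that library and 479 and 437 RPM in the other two, against 123 to 151 RPM in HuCCT1/CD90+ libraries. Without that library 7 targets were lower, against 5.96% of all genes. As it was the lowest of its line in all 15, leaving it out raises their HuCCT1/CD90- means. Each other fit that left out 1 library had 1 target lower, against 4.36% to 5.22% of all genes. With the block 1 was lower, against 4.86%. When only genes with at least 1 RPM entered the fit, 7 targets were lower, against 16.5%.

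**Figure D4:**
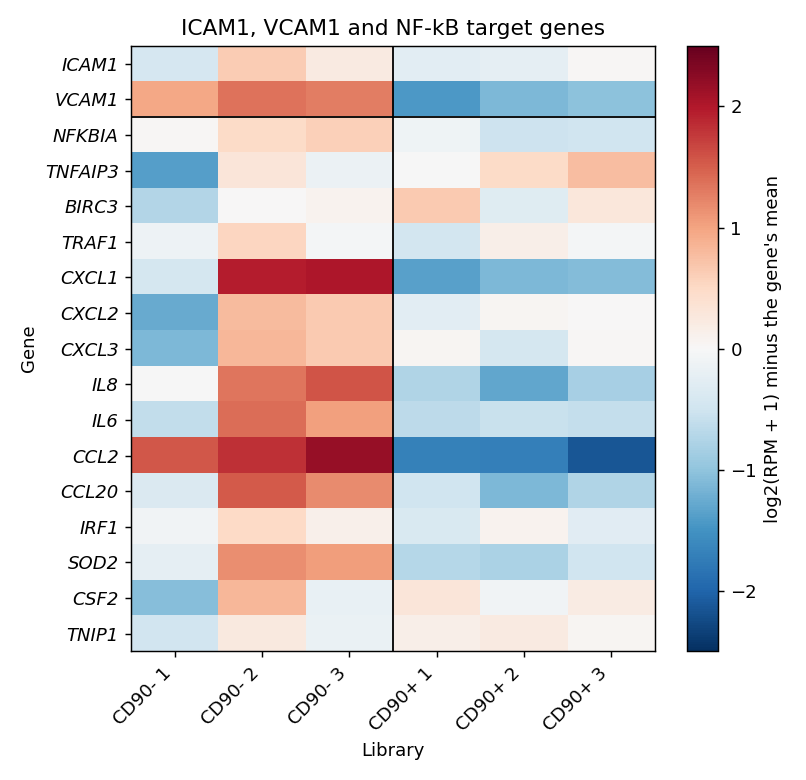
ICAM1, VCAM1 and 15 NF-kB target genes (rows) in the 6 libraries (columns), coloured by log2(RPM + 1) minus the mean of the gene over all libraries, red above and blue below. HuCCT1/CD90- library 1 is the lowest of its line in each of the 15 targets, and VCAM1 and CCL2 are high in all 3 HuCCT1/CD90- libraries.

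Since the members are best known from endothelium, platelets and leukocytes, markers of these cells were read in the same libraries. Their counts stand against 7.49% of all genes lower and 7.59% higher, or 4.86% and 5.24% with the block. Of 22 endothelial markers 4 fell and 2 rose, with the block 2 fell and none rose, and 5 had no read (FLT1, CLDN5, EMCN, LYVE1 and STAB2). Their sum ranged from 73.1 to 122 RPM in HuCCT1/CD90- libraries and from 71.4 to 75.1 RPM in HuCCT1/CD90+ libraries. Most of it was ENG, the TGF-β coreceptor endoglin, at 66.1 and 65.4 RPM. CDH5, the cadherin of endothelial junctions, fell from 16.6 ± 3.17 to 0.293 ± 0.118 RPM (limma adjusted p = 0.00080), while KDR had 1 read in all libraries together.

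Of 11 platelet markers 1 fell with and without the block, the transcription factor NFE2 (7.18 ± 1.49 to 0.552 ± 0.283 RPM, limma adjusted p = 0.0038), and the platelet chemokine PPBP had 1.44 and 5.28 RPM without passing. GP9, TREML1 and TUBB1 had no read, and the sum of the list ranged from 7.01 to 11.3 RPM and from 6.73 to 9.65 RPM. Of 12 leukocyte markers 3 fell, and 1 (CD14) with the block. Among the 3 were CD14 (80.8 ± 10.1 to 4.32 ± 0.195 RPM, limma adjusted p = 0.00037) and LYZ (12.0 ± 2.40 to 1.52 ± 0.670 RPM, limma adjusted p = 0.0082, with the block 0.069). The sum of the 12 ranged from 90.7 to 115 RPM in HuCCT1/CD90- and from 12.1 to 14.7 RPM in HuCCT1/CD90+ libraries, with 4 of the markers at 0 reads. Most of the HuCCT1/CD90- sum was CD14, while the general leukocyte marker PTPRC had 1 read, in HuCCT1/CD90- library 2.

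Of 10 fibroblast and stellate cell markers 6 fell, and with the block 2 (PDGFRB and LUM). Their sum ranged from 47.6 to 73.4 RPM and from 23.8 to 26.9 RPM. LUM fell from 26.4 ± 10.7 to 7.30 ± 2.33 RPM (limma adjusted p = 0.046), whereas COL1A1 had 13.5 and 14.2 RPM. Of 12 biliary epithelial markers 1 fell and 6 rose, as with the block, with sums from 8323 to 9420 RPM and from 11438 to 12286 RPM. SELP alone, at 451 to 568 RPM in HuCCT1/CD90- libraries, exceeded the sums of the endothelial, platelet, leukocyte and fibroblast lists. Amplicons may differ in yield and the sums depend on the genes listed, so this comparison does not bear on the source of SELP reads. The part of other cell types in the levels of the members was not tested.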

How the data were processed

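Reverse-transcribed total RNA of HuCCT1 cells was amplified with the Ion AmpliSeq panel. The authors took read counts from the ampliSeqRNA plugin and deposited RPM, reads scaled to the library total, in 1 table of 20811 genes. The submitters' processing notes name hg19 and Transcriptome Analysis Console. Amplicon positions were not used here, so a value may depend on the isoform read.

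All RPM values (100%, within 0.001 RPM) were whole multiples of 1 read, from which reads were recovered. Libraries of a line differed by more than sampling noise (chi-square per degree of freedom 9.18 to 25.2). Intervals and limits cover counting error only, as PCR reads carry no molecular identifiers.

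log2(RPM + 1) values were fitted in R 4.3.3 with limma 3.58.1 (eBayes, no block) over all genes, following the study's use of limma, with Benjamini-Hochberg adjustment. Genes passed with an adjusted p up to 0.05 and a change of 1.5-fold or more. Alternatives included edgeR 4.0.16 (quasi-likelihood, filterByExpr) and DESeq2 1.42.0 on the recovered reads. Scripts were tested on simulated data. One gene of the lists is not reported here. The members, lists and tests were chosen with earlier results of these data known. Named were the members, THY1, per list up to 4 genes that passed and averaged 1 RPM or more, by size of change, neighbours of SELP that passed, the 3 nearest profiles of members reaching 10 RPM, and the 2 highest markers of a list. Other named genes (such as SOD2, ITGB2, ITGA2B, KDR and C1orf112, and markers without reads) were chosen after their values were seen.

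Same-numbered libraries of the lines deviated together (r = 0.21, 0.32 and 0.18, other pairs -0.29 to 0.07), so the numbers were taken to pair them, from this check alone. Deviations were taken from the mean of each line, so a positive r in same-numbered pairs pushes the other pairs below 0, and part of this contrast is built in. Blocking on that number was an alternative. Positions are from GENCODE 29 on GRCh38, which is not the build of the counting and served only to place genes. Promoters are from RefSeq GRCh38.p14.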

Additional observations from a re-analysis of the deposited data

How the results depend on the processing

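Every log2 difference of the 6 members above the detection limit kept its direction in the alternatives run. Sizes moved with the offset and with the tool. With an offset of 0.1 RPM the differences were -9.57 for SELP, -1.16 for SELPLG, -3.18 for VCAM1 and -2.01 for PECAM1. With 5 RPM they were -6.53, -0.26, -1.26 and -0.37, and 1.93 for ICAM2. On recovered reads edgeR gave -9.74, -1.18, -3.26 and -2.04, and DESeq2 -9.76, -1.18, -3.27 and -2.04, for the same 4 genes. With 1 library left out they ranged from -8.43 to -8.27 for SELP, -0.81 to -0.55 for SELPLG, -0.58 to -0.055 for ICAM1, 2.06 to 2.31 for ICAM2, -2.52 to -2.27 for VCAM1 and -1.28 to -0.75 for PECAM1.

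When genes under 1 RPM were left out, 19 of 74 companion genes were lower and 15 higher, against 16.5% and 16.7% of all genes tested there. In edgeR 20 of 74 were lower and 17 higher, against 17.3% and 17.5%, and in DESeq2 19 of 83 and 17, against 14.3% and 15.1%. With the replicate block 7 were lower and 9 higher, and with 1 library left out 8 to 15 were lower and 8 to 13 higher, against 4.36% to 5.96% and 4.61% to 5.64% of all genes. The fewest higher were left without HuCCT1/CD90- library 3 (9), HuCCT1/CD90+ library 2 (9) and HuCCT1/CD90+ library 3 (8). NF-kB targets went from 1 to 7 lower genes. The 7 were reached without HuCCT1/CD90- library 1, without genes under 1 RPM, in edgeR and in DESeq2. In these settings 5.96%, 16.5%, 17.3% and 14.3% of all genes were lower. In edgeR 1 target was also higher. Markers that fell with the block went from 4 to 2 (endothelial), 3 to 1 (leukocyte) and 6 to 2 (fibroblast). Neighbours of SELP that fell numbered 1 with an offset of 5 RPM, 1 when a 2-fold change was required, 5 under median centring and 5 in DESeq2, where 5.6%, 4.43%, 9.87% and 14.3% of all genes were lower, and 2 to 3 with 1 library left out. Of 22 named companion and neighbour genes none changed sign, and 6 lost their call under the block and 5 to 7 with 1 library left out. The cause was not tested. Below about 0.3 RPM, at 3 reads, no level could be resolved, which touches SELE, VWF and PECAM1.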
